A study of Mus musculus with 104 samples.

Results

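The genes described here mostly encode the general splicing machinery. They are all genes of the deposited tables whose symbol starts with Snrp, Lsm, Prpf, Srsf, Sf3a or U2af, apart from Snrpn, and they number 55 of the 24958 genes kept. Splicing removes introns from pre-mRNA in the spliceosome, which is built on small nuclear RNAs that each carry a ring of Sm or LSm proteins and form particles called snRNPs. The U1 snRNP reads the start of an intron, U2AF, SF3A and the U2 snRNP read its end and branch point, and the Prpf proteins bring in and activate the particles that carry out catalysis. SR proteins bind exons, recruit these factors and help to choose which exons are kept, and many of their own transcripts are turned over through regulated splicing. Cells that resemble blastomeres of the early embryo were first derived with pladienolide B, a drug that binds the SF3B part of the U2 snRNP, so splicing genes bear on this culture system; the labels used here do not say what the medium component P is.

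By role, 7 of the 55 genes encode the Sm core, 10 encode proteins of the U1 and U2 snRNPs, 3 belong to the U2AF family, 13 to the LSm family, 10 to the Prpf proteins of the tri-snRNP and the catalytic steps, and 11 to the SR proteins. The LSm family was grouped by symbol, and not all of its members act in splicing, as with Lsm11 of the U7 snRNP, which processes histone mRNA. The term splicing genes below includes them. The last one of the 55, Lsmem1, shares only the start of its symbol with the LSm genes, encodes a membrane protein, and was too low to be tested in any comparison. The other 54 genes passed the filter on low counts in all comparisons but 3, in which 53 passed.

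Bulk RNA-seq measured 104 mouse libraries in 23 groups. All were labelled wild type except 1 Ctnnb1 knock-out, and all but the lines from ICR embryos and a blastocyst were labelled TC1-GFP, a mouse embryonic stem cell line. The groups used here were mPSC, TC1-GFP cells in S/L medium (n = 3, including a library whose title places it at passage 0 of 2MYCP), 2MYCP medium at passages 1, 2, 4, 6, 8, 14 and 19 (n = 7), 2MYC medium, named without the P, at passages 1 to 6 (n = 6), and lines from ICR embryos in 2iLP medium (n = 4), titled blastomere with the doses 4nM and 2-5nM of an agent the labels do not name, each at passages 4 and 5, so that libraries of 1 dose may be 1 line. Cells of the 2MYCP culture were followed over 92 h in S/L medium (n = 20), 96 h in SFH medium (n = 23) and 96 h in NTF medium (n = 7), with 1 library per hour sampled. A last set carries the title ZHBTc4, the name of a line whose Pou5f1 is switched off by doxycycline, but the cell line label TC1-GFP. It came from 2MYCP (n = 5) and 2MYC (n = 2) medium and was grouped as with doxycycline, which the 2MYC titles do not name. A further 2MYCP library of this set, at passage 12 (n = 1), has no doxycycline in its title. Other groups are given as levels only: 2MYCP medium on gelatin (n = 2), 2MYP (n = 2), TELC (n = 3), PreLC (n = 3) and blastoids (n = 2). Levels only are also given for a blastocyst titled E3.5 (n = 1) and embryoid bodies from TC1 (n = 4) and 2MYCP cells (n = 4). Whether the libraries of a group are separate cultures is not in the labels, and the p-values cover no more than the scatter among these libraries, some of it possibly technical.

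Levels are given as CPM, counts scaled to a common library total, and total counts ran from 1.041 to 56.992 M with a median of 22.761 M (M, mega). The 55 genes together took 0.482% to 1.13% of the counts of a library, with a median of 0.957%. In 17 libraries short genes were overrepresented, taken as a slope below -0.4 when the deviation of log2 (CPM + 1) from the mean of all libraries is regressed on log10 exon length. They include the passage 0 library of mPSC (slope -1.69), the ICR line titled 4nM at passage 4 (-0.84), the NTF library of 4 h (-0.44) and both ZHBTc4 libraries in 2MYC. Sm core genes are short, and their summed level was highest in such libraries, at 1924 CPM in passage 0 against 648 and 799 CPM in the other mPSC libraries. The summed SR genes were often low there, at 1209 CPM against 2488 and 2510 CPM. The 2MYCP and 2MYC libraries stand in separate deposited tables with depths of 20.157 to 42.335 and 6.263 to 7.979 M, so that medium, table and depth cannot be told apart. In bulk RNA, fewer cells of a type and less RNA per cell cannot be told apart either. Fibroblast collagen and matrix genes (a list of 10, none at 0 in the 2MYCP, 2MYC, mPSC or ICR libraries) summed to 521 to 1916 CPM in 2MYCP, 341 to 759 in 2MYC, 602 to 1339 in mPSC and 3431 to 5194 in the ICR lines; their part in the results was not tested. Of 5356 pairs of libraries, the closest in counts over 12893 genes were the mPSC library of the 2MYC table and the TC1 embryoid bodies of day 3, with a mean squared difference of 3.90 times the binomial variance against 5.74 for the next pair, so this mPSC library and that day label are in doubt and counts without that mPSC library are given.

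**Figure D1:**
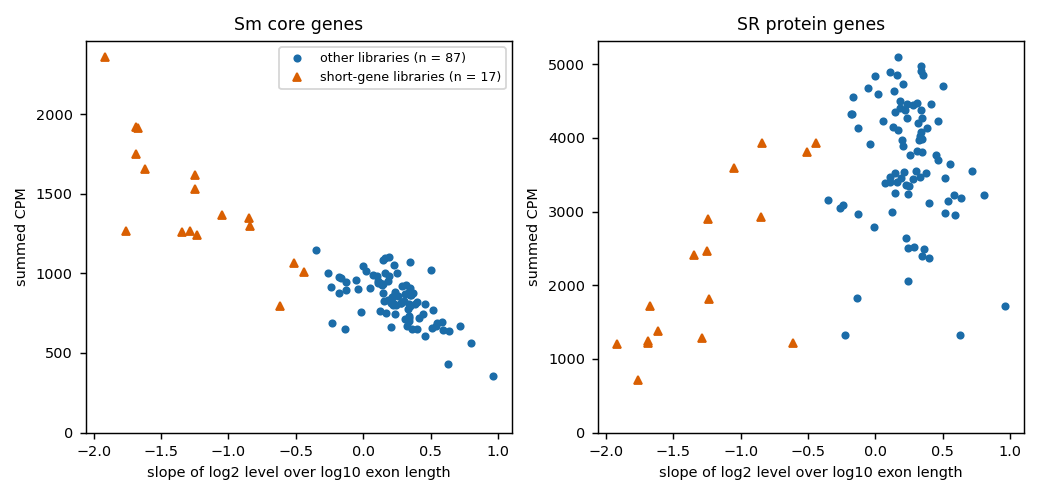
Summed CPM of the Sm core genes and of the SR protein genes in each library (y axes) against the slope of the deviation of log2 (CPM + 1) from the mean of all libraries on log10 exon length (x axis), for 87 other libraries and 17 with overrepresented short genes. Most libraries with a low slope have high Sm sums and most have low SR sums, as the passage 0 library shows at 1924 and 1209 CPM. Some lie among the other libraries, such as the NTF library of 4 h with an Sm sum of 1006 CPM.

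The promoters of 4 genes that passed the test between 2MYCP and 2MYC medium are shown, 3 SR genes that were lower with P and the Sm gene that was higher, so that their upstream letters can be compared. Each runs from 250 bases before to 50 after the RefSeq start in GRCm38.p6 and is written 5' to 3' in the gene's direction. Capitals mark matches on either strand to CCAAT, to the GC box GGGCGG, to the ETS motif CCGGAAG or to TATAAA. The windows are chr17:29032410-29032709 on the plus strand for Srsf3, chr17:80207256-80207555 on the minus strand for Srsf7, chr4:135855821-135856120 on the plus strand for Srsf10 and chr10:75517792-75518091 on the plus strand for Snrpd3.
Srsf3: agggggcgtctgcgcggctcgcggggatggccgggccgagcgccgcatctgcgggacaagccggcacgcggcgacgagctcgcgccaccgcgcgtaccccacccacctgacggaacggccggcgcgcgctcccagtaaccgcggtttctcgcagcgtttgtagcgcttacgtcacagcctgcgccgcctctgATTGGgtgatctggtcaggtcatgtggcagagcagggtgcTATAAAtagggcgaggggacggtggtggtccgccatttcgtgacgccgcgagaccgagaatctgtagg
Srsf7: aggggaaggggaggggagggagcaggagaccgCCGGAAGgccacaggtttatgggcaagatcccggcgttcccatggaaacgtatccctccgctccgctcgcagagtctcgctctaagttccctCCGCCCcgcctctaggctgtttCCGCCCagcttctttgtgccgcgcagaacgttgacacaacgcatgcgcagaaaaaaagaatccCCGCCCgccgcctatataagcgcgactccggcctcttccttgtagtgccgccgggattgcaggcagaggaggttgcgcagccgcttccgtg
Srsf10: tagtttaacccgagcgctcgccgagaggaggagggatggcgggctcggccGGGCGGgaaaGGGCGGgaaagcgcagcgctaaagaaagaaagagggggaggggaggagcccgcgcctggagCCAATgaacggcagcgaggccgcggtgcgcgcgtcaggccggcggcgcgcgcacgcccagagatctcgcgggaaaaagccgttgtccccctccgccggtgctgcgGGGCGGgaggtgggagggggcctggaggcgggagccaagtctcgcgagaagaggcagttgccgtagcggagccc
Snrpd3: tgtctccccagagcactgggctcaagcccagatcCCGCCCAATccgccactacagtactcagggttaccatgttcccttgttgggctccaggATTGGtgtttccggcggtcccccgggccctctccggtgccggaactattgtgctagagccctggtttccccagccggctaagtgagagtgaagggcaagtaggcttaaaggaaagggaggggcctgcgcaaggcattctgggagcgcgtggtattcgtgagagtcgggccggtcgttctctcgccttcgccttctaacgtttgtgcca
Srsf3 holds 1 CCAAT match and 1 TATAAA match and no GC box, whereas Srsf7 holds 3 GC boxes and 1 ETS match, and Srsf10 holds 3 GC boxes and 1 CCAAT match. In Snrpd3 a GC box and a CCAAT match overlap, and a second CCAAT match lies downstream.

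Of the 55 genes, 47 matched a RefSeq promoter window. GGGCGG occurred in 33 of them (70.2%, against 35.7% of all 32851 windows of the table), including 10 of 11 SR genes and 9 of 10 LSm genes with a window. CCGGAAG occurred in 15 (31.9% against 8.9%). The other motifs searched were CCAAT in 20 (42.6% against 37.4%), the E-box CACGTG in 4 (8.5% against 7.2%), TATAAA in 3 (6.4% against 13.6%) and the longer YY1 motif in 1 (2.1% against 0.6%). Both strands were searched, and a match describes letters only.

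Scaled by exon length, as CPM per kilobase in 2MYCP cells of passages 6, 8, 14 and 19, the most abundant of these transcripts encoded 2 SR proteins. Srsf5 stood at 318.5 ± 24.1 and Srsf2 at 223 ± 22.9 CPM per kilobase (SD, n = 4). They were followed by Snrpb, the Sm protein B of the ring, at 141 ± 9.11, by the U2AF subunits U2af1 (134 ± 5.77) and U2af2 (125 ± 12.9), which bind the end of the intron, and by Prpf8, the scaffold of the catalytic core, at 124 ± 15.7. Neighbours among these last 4 did not differ beyond their spread. Next came Srsf7 at 113 ± 5.77 and Srsf3 at 107 ± 9.79. At the low end were Lsm11, a protein of the U7 snRNP that processes histone mRNA, at 2.53 ± 0.505, and Srsf12, an SR protein, at 2.05 ± 0.657. Snrpf, a subunit that every Sm ring needs, stood at 1.25 ± 0.529 per kilobase and at 0 to 8 CPM in all libraries, far below its ring partners. How reads shared with copies of the gene were counted is not given in the sources used here, so its level is uncertain.

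**Figure D2:**
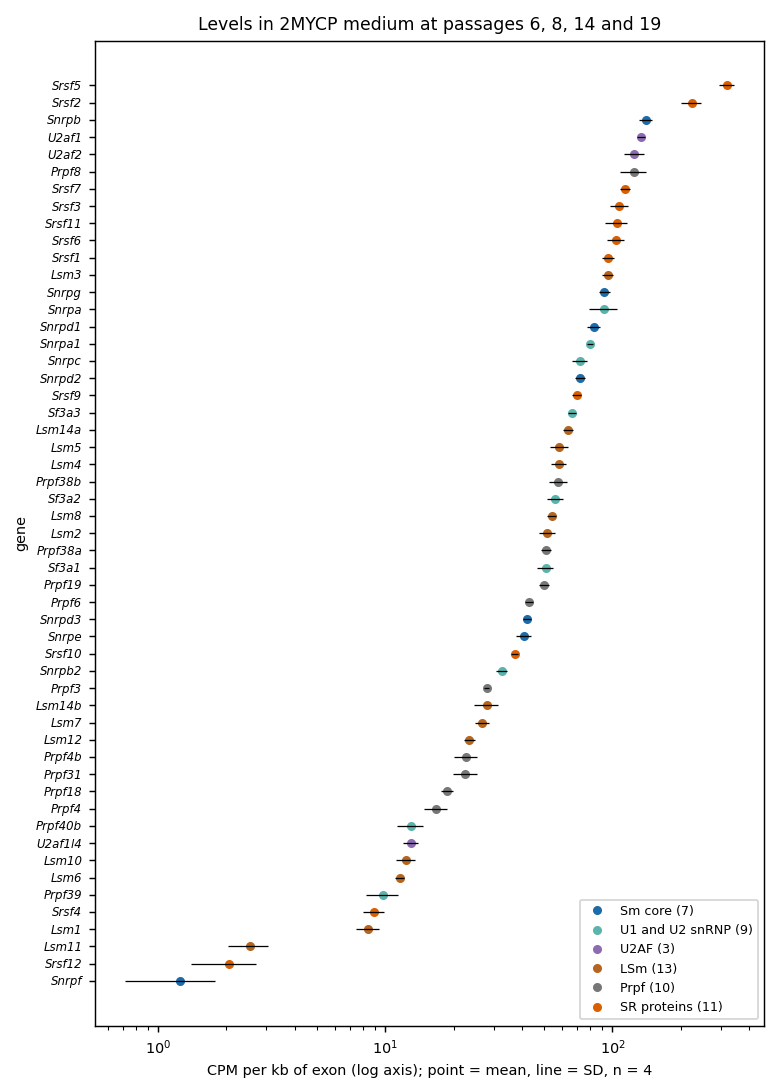
CPM per kilobase of exon (log axis) of the splicing genes in 2MYCP cells of passages 6, 8, 14 and 19, as mean and SD of 4 libraries, coloured by role. Srsf5 and Srsf2 lie highest, at 318.5 and 223, and Snrpf, Srsf12 and Lsm11 lowest of the genes that were tested.

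With and without P at passages 1, 2, 4 and 6, 4 of 11 SR genes were lower in 2MYCP than in 2MYC medium, and 1 of 7 Sm genes was higher. Srsf3, the smallest SR protein and one that also couples splicing to RNA export and 3' end choice, stood at 347, 373, 297 and 307 CPM with P and at 667, 615, 638 and 380 CPM without it, passage by passage. The ranges did not overlap, and passage 6 without P was the lowest of its group. The log2 fold change was -0.81 ± 0.15 (SE, edgeR quasi-likelihood test, Benjamini-Hochberg adjusted p = 0.016). Srsf10, an SR protein that represses splicing when it is dephosphorylated, stood at 259, 237, 187 and 220 CPM against 429, 344, 403 and 299 CPM, again with no overlap (-0.75 ± 0.14, adjusted p = 0.015). Srsf9 stood at 76.4, 64.2, 65.4 and 80.4 CPM against 104, 113, 96.8 and 104 CPM (-0.60 ± 0.12, adjusted p = 0.021). Srsf7, a close relative of Srsf3, stood at 346, 388, 315 and 308 CPM against 555, 485, 488 and 382 CPM (-0.53 ± 0.12, adjusted p = 0.026). Its groups overlapped, since passage 2 with P lay above passage 6 without it.

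Among the snRNP proteins, Prpf39, a factor that works with the U1 snRNP, stood at 60.4, 45.4, 43.2 and 31.9 CPM with P and at 83.0, 64.4, 65.7 and 78.6 CPM without it, a log2 fold change of -0.76 ± 0.15 (edgeR, adjusted p = 0.019). Snrpd3, an Sm ring protein, was the one gene that was higher with P, at 168, 163, 156 and 129 CPM against 102, 111, 101 and 89.4 CPM (0.56 ± 0.10, adjusted p = 0.013). Neither gene's groups overlapped. Its ring partners did not pass, with Snrpb at 0.07, Snrpd2 at 0.14 and Snrpe at 0.02 on the log2 scale. Nor did the U2 and U2AF genes pass, with Snrpa, of the U1 snRNP, at 0.31, Sf3a1 at 0.27, U2af1 at -0.02 and U2af2 at 0.06, or Lsm2 (-0.14), Prpf8 (0.28) and Prpf31 (-0.03), a tri-snRNP protein. The remaining SR genes of the fixed set lay below 0 without passing, with Srsf2 at -0.57 (adjusted p = 0.079), Srsf6 at -0.37, Srsf1 at -0.27 and Srsf5 at -0.25.

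In all 1 of 54 genes was higher and 5 were lower, against 6.37% and 6.38% of the 15291 genes tested, and their median log2 fold change was 0.03 against 0.02 for all genes. Called genes made up 11.1% of the 54 and 12.7% of all genes, so the share called did not stand above the background. Summed SR levels ran from 2953 to 3989 CPM over all 2MYCP passages, with a median of 3180, and from 3700 to 5101 CPM in 2MYC, with a median of 4600. The call depends on which passages enter: with passage 1 or passage 2 left out, 0 genes passed the edgeR test (with 10 below 0.05 before adjustment in each), without passage 4 there were 2, and without passage 6 there were 12, of which 11 were lower. The Srsf3 change stayed negative in each case, at -0.75, -0.83, -0.69 and -1.01 on the log2 scale. DESeq2 on all 4 passages called 9 genes, 1 higher and 8 lower. Genes of the 2-cell embryo rose with P in 7 of 7 cases, primitive endoderm genes in 4 of 7, trophectoderm genes in 2 of 6 and fibroblast genes in 4 of 10, and 0 fell. The summed primitive endoderm level was not higher with P, at 240 to 671 CPM (median 354) against 421 to 561 CPM (median 459). The part of these genes in the result was not tested.

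**Figure D3:**
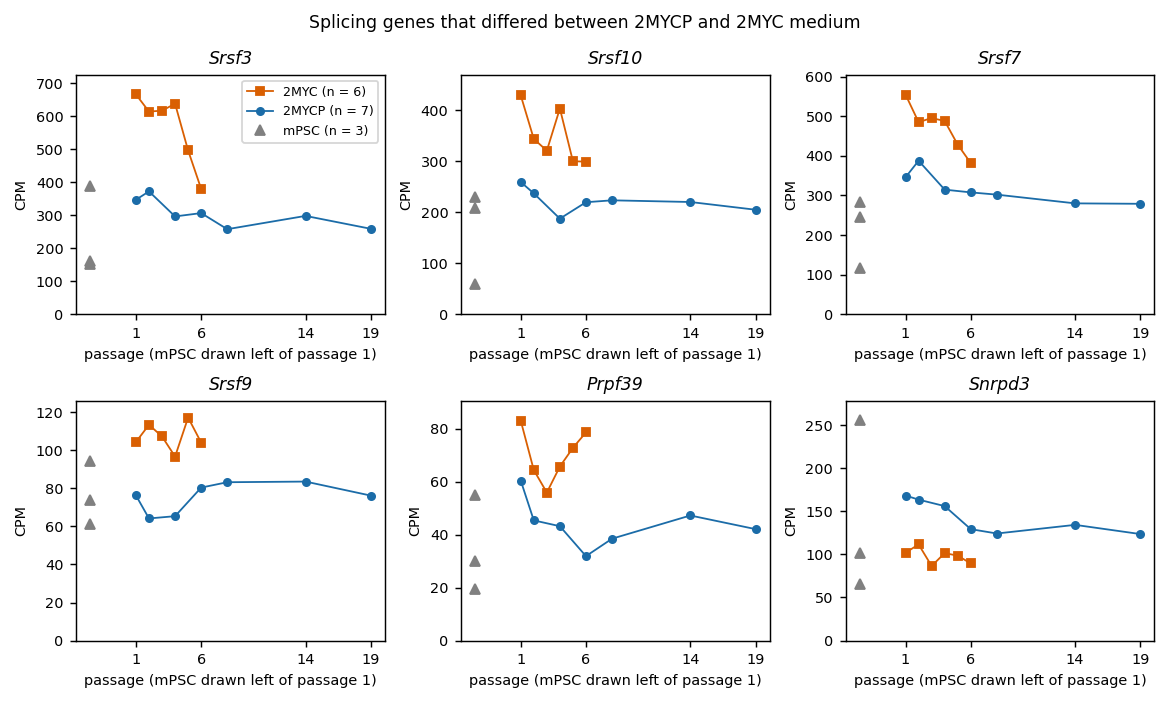
CPM of Srsf3, Srsf10, Srsf7, Srsf9, Prpf39 and Snrpd3 by passage in 2MYCP (n = 7) and 2MYC (n = 6) medium, one point per library, with the 3 mPSC libraries as triangles to the left of passage 1. The 2MYC points of Srsf3 stand at 667 CPM at passage 1 and at 380 CPM at passage 6, where they come closest to 2MYCP at 307 CPM.

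Other parts of the machinery were read from lists of related genes. Of 7 SF3B genes, Sf3b3, a scaffold subunit of SF3B, was higher with P (1.46 ± 0.14, adjusted p = 0.0029) and the other 6 did not pass. Of 23 hnRNP genes, which often oppose SR proteins, 1 was higher and 5 were lower, with Hnrnpa0 at -1.05, Hnrnpdl at -1.03 and Hnrnpf at -0.74. Of 15 SR-related genes 0 were higher and 3 were lower, namely Luc7l2 (-0.78), a U1-associated protein, Rsrc1 (-0.64) and Tra2a (-0.49). Of 16 genes of snRNP assembly 3 were higher, and of 20 genes of the Prpf19 complex and of spliceosomal helicases 5 were higher and 2 lower. None of 6 SR protein kinase genes passed, with 0 higher and 0 lower.

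Against mPSC, cells in 2MYC medium had higher SR transcripts. Of the 11 SR genes 8 rose and 0 fell, among 10 of 54 genes that were higher and 6 that were lower, against 9.41% and 15.3% (24.7% in either direction) of the 16612 genes tested. Srsf2, an SR protein that binds exonic enhancers and is mutated in myeloid disease, stood between 502 and 828.5 CPM in the 6 2MYC libraries (median 749) and at 324, 169 and 244 CPM in mPSC (1.48 ± 0.21 on the log2 scale, edgeR adjusted p = 0.00013). The groups did not overlap. Srsf5 rose by 1.46 ± 0.24, from 331, 105 and 291 CPM to 553 to 786 CPM, and Srsf6 by 1.26 ± 0.22, from 272, 134 and 310.5 CPM to 418.5 to 723 CPM, both without overlap. Srsf3 rose by 1.20 ± 0.27, but its groups overlapped, since 1 mPSC library stood at 388 CPM and 2MYC passage 6 at 380 CPM. Srsf7 (1.07), Srsf10 (1.03), Srsf4 (0.93) and Srsf11 (0.73) rose too, as did Prpf39 (0.95) and Prpf38b (0.92), which helps to activate the spliceosome. These 10 rises held in every alternative tried, and without the passage 0 library Srsf2 was at 1.34, Srsf5 at 1.14 and Srsf6 at 1.03. The mPSC libraries come from different deposited tables, 1 of them that of the 2MYC libraries, without which 13 genes were higher and 15 lower. With gene length trends removed 13 were higher and 3 lower, and long genes went with higher changes among the 54 (Pearson r = 0.492 of log2 change on log10 exon length, across genes that are not independent). Fibroblast markers fell in 5 of 10 cases, primitive endoderm markers in 4 of 7 and trophectoderm markers in 2 of 6, and none of them rose; their part in the result was not tested.

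The 6 genes that were lower in 2MYC than in mPSC were all snRNP proteins: Snrpd2 (-1.57), Snrpe (-1.08) and Snrpg (-0.93) of the Sm ring, and Snrpa (-0.99), Snrpa1 (-0.91) and Snrpc (-0.70) of U1 and U2. Each rested on the passage 0 library. Snrpd2 stood at 685 CPM there, at 130 and 143 CPM in the other mPSC libraries, and at 112 to 137 CPM in 2MYC. Without that library 11 genes were higher and 0 lower, with Snrpd2 at -0.16 and Snrpe at -0.50. Of the fixed set Snrpb (-0.42), Sf3a1 (0.31), U2af1 (-0.17), U2af2 (0.04), Lsm2 (-0.37), Prpf8 (-0.02), Prpf31 (0.18) and Srsf1 (0.43) did not pass. Of related lists, 10 of 23 hnRNP genes rose and 0 fell, led by Hnrnpdl (1.38), Hnrnpa0 (1.19) and Ptbp2 (1.04), and 8 of 15 SR-related genes rose and 0 fell, led by Srrm4 (2.07), an activator of microexons, Son (1.14), a scaffold of nuclear speckles, and Srek1 (1.07).

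Established 2MYCP cells, of passages 6, 8, 14 and 19, had 3 of 11 SR genes higher and 4 of 7 Sm genes lower than the same mPSC libraries. Of 54 genes 5 were higher and 12 lower, against 15.4% and 17% of 16612 genes, and called genes were 31.5% of the 54 and 32.5% of all genes, so the share called did not stand above the background. With gene length trends removed 7 were higher and 7 lower, and changes of the 54 went with length (Pearson r = 0.471, across genes). Srsf5 stood between 494 and 574 CPM (0.98 ± 0.24, adjusted p = 0.0053), Srsf2 between 398 and 491 CPM (0.71 ± 0.22, adjusted p = 0.018), both above the 3 mPSC libraries given above, and Srsf11 (0.71), Prpf38b (0.79) and the kinase Prpf4b (1.03) rose too. Srsf3 stood at 258 to 307 CPM, within the mPSC range (0.09 ± 0.27, adjusted p = 0.83), and Srsf6 (0.53), Srsf7 (0.29) and Srsf1 (0.10) did not pass. Lower were Snrpd2 (-1.93), Snrpe (-1.55), Lsm7 (-1.24), Snrpg (-1.23), Lsm4 (-1.19) and Snrpa (-1.04), and also Snrpa1, Lsm11, Prpf40b, Lsm2 (-0.67), Snrpb (-0.62) and Prpf6. Sf3a1 (0.37), U2af1 (-0.50), U2af2 (-0.18), Prpf8 (0.01) and Prpf31 (-0.39) did not pass. With the mPSC library of the 2MYC table left out, 7 genes were higher and 19 lower, and without the passage 0 library 2 were higher and 5 lower. Of the calls above, Snrpe (-0.99), Lsm11 (-0.87), Prpf40b (-0.67), Prpf6 (-0.41), Srsf5 (0.65) and Prpf38b (0.55) still passed, while Snrpd2 (-0.54) and Srsf2 (0.56) did not. Markers of the 2-cell embryo rose in 7 of 7 cases and of primitive endoderm in 5 of 7, with a part in these changes that was not tested.

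The lines from ICR embryos in 2iLP medium had 7 of 11 SR genes and 4 of 10 U1 and U2 genes higher than mPSC. Of 54 genes 16 were higher and 3 lower, against 15.7% and 17.7% of 16612 genes, and their median log2 fold change was 0.35 against -0.05. Called genes were 35.2% of the 54 and 33.4% of all genes, but 16 of the 19 lay in one direction. Srsf2 stood at 580.5 to 744 CPM in the 4 libraries (1.45), Prpf39 at 78.1 to 102 CPM against 55.1, 19.5 and 30.0 CPM (1.41), and Srsf5 at 586 to 632 CPM (1.36), each above every mPSC library. Srsf3 (1.07), Prpf38b and Srsf6 (0.98) followed, with Srsf7, Srsf11, Srsf1 and Sf3a1 (0.75), a subunit that tethers the U2 snRNP to the branch point. Lower were Lsm11 (-1.19), Snrpd2 (-1.19) and Prpf40b (-0.84). Without the passage 0 library Snrpd2 turned to 0.21 and did not pass, and 23 genes were higher and 3 lower, while with the mPSC library of the 2MYC table left out, 18 were higher and 4 lower. Snrpb (0.02), Snrpe (-0.32), Snrpa (-0.60), U2af1 (0.25), U2af2 (0.07), Lsm2 (0.02), Prpf8 (-0.23) and Prpf31 (0.58) did not pass. Strain, medium and the high fibroblast sums differ between these lines and mPSC together and cannot be told apart. The comparisons of 2MYC, 2MYCP and ICR lines share the mPSC libraries and are not independent.

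**Figure D4:**
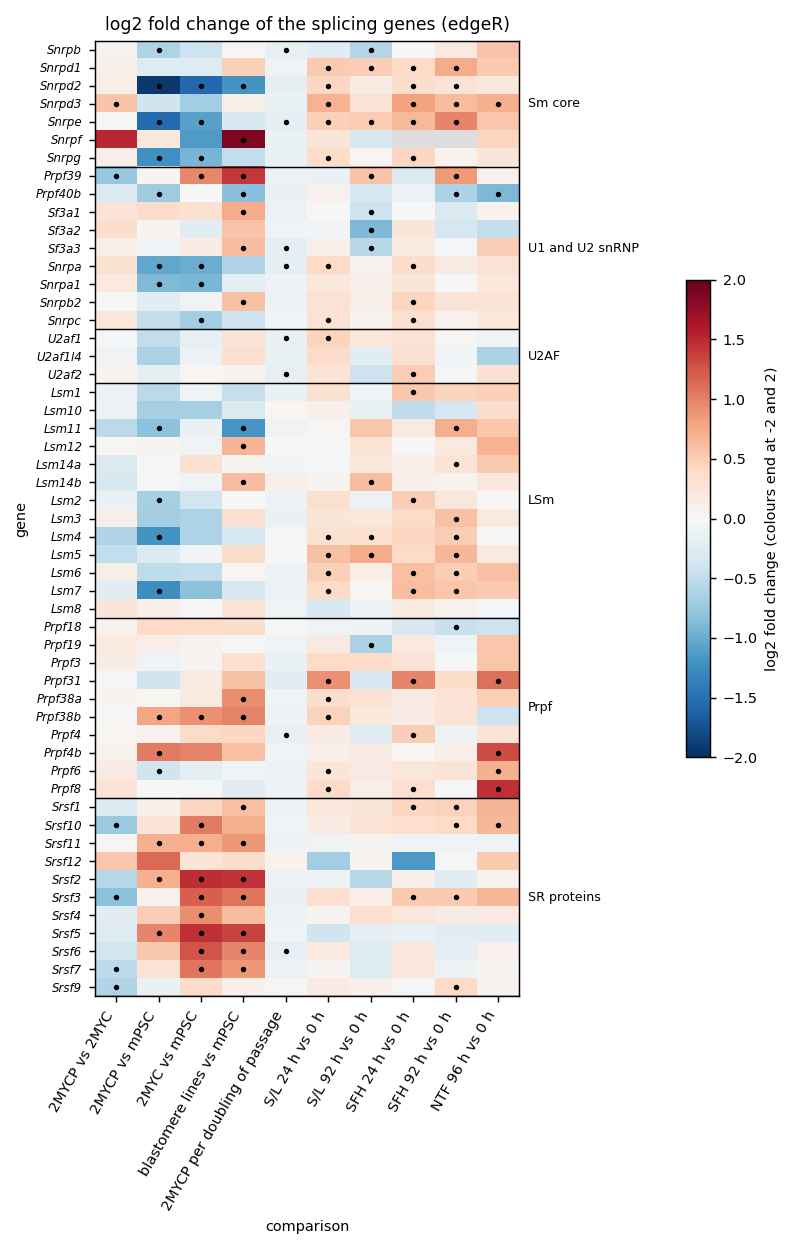
Log2 fold changes of the splicing genes (rows, in 6 role blocks) in 10 comparisons (columns), with dots where the adjusted p was under 0.05 and grey where a gene was not tested. In the SR block 8 genes in 2MYC and 7 in the ICR lines carry a dot on a rise against mPSC, and 4 carry one on a lower value with P. In the Sm block 5 genes carry a dot on a fitted rise at 24 h in each of the S/L and SFH courses.

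Over the passages of the 2MYCP culture 8 splicing genes, from the Sm core to U2AF, became slightly lower. The change per doubling of passage had a median of -0.10 on the log2 scale over the 54 genes, against 0.01 over all genes, and 8 genes fell and 0 rose, against 1.64% and 4.03% (5.68% in either direction) of 16185 genes. U2af2 stood at 404, 368, 317, 309, 263, 305 and 252 CPM at passages 1, 2, 4, 6, 8, 14 and 19, and Snrpb at 222, 195, 177, 177, 159, 164 and 153 CPM. Snrpe stood at 75.0, 86.2, 78.3, 59.9, 58.3, 54.9 and 50.2 CPM. The later passages were lower in all 3 genes. Per doubling, Snrpe changed by -0.20, Snrpa by -0.18, Sf3a3 and U2af2 by -0.17, Srsf6 by -0.16, U2af1 by -0.15, Prpf4 by -0.14 and Snrpb by -0.14 (edgeR, adjusted p from 0.044 to 0.048). Srsf3 (-0.13), Srsf7 (-0.12), Srsf2 (-0.12), Srsf1 (-0.10), Srsf5 (-0.09), Snrpd2 (-0.19), Sf3a1 (-0.12), Lsm2 (-0.10), Prpf8 (-0.10) and Prpf31 (-0.21) did not pass. The calls were at the edge of the threshold: leaving out 1 library gave 0 calls for passages 2, 6, 8, 14 and 19, 1 for passage 1 and 8 for passage 4, while 30 of 54 genes had an unadjusted p under 0.05. Fibroblast genes rose with passage in 5 of 10 cases. The libraries also shifted with passage, with length slopes of 0.35 to 0.40 and ribosomal protein shares of 6.07% to 6.35% of counts at passages 1, 2 and 4, against 0.54 to 0.64 and 4.57% to 5.09% from passage 6 on, and with gene length trends removed 5 genes fell and 0 rose. In 2MYC no gene of 53 passed over passages 1 to 6 (0 in edgeR, 15 at an unadjusted p under 0.05, 1 lower in DESeq2), against 0% and 0.0145% of 13797 genes.

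When 2MYCP cells were moved to S/L medium, the curve fitted over all hours put many snRNP genes higher at 24 h. By the fitted curve, 17 of 54 genes were higher at 24 h than at 0 h and 0 were lower (31.5%, against 12.5% higher, 12.4% lower and 24.9% in either direction of 16846 genes), with a median log2 change of 0.22 against -0.04 for all genes. Prpf31, which holds the U4/U6 and U5 particles together, went from 108 CPM at 0 h to 193 CPM at 24 h and 233 CPM at 36 h, the highest of the course, and was down to 78.7 CPM at 92 h (0.92 ± 0.17 at 24 h, edgeR adjusted p = 0.00046). Of the Sm genes 5 rose, with Snrpd3 at 0.70, Snrpd1 at 0.52, Snrpe at 0.48, Snrpd2 at 0.41 and Snrpg at 0.37, as did Lsm5 (0.58), Lsm6 (0.48), Lsm7 (0.39) and Lsm4 (0.30) of the LSm rings. Snrpa (0.40), Snrpc (0.30), U2af1 (0.45), Prpf8 (0.39), Prpf38b (0.45), Prpf38a (0.35) and Prpf6 (0.24) completed the list. Snrpd1 stood at 113 to 140 CPM from 0 to 28 h and at 181 to 209 CPM from 36 to 60 h, with no overlap. Its libraries thus stepped up after 28 h, and a smooth curve can place part of such a step at 24 h. The summed Sm genes stood at 874 CPM at 0 h, 952 CPM at 24 h and 984 CPM at 36 h. How much of each 24 h change comes from the smoothing was not tested. None of the 11 SR genes passed at 24 h, with Srsf3 at 0.33 ± 0.33, Srsf1 at 0.22, Srsf2 at -0.11, Srsf5 at -0.40, Srsf6 at 0.19 and Srsf7 at 0.05. Snrpb (-0.21), Sf3a1 (0.01), U2af2 (0.27) and Lsm2 (0.32) did not pass. Genes that assemble Sm rings moved the same way, since 6 of 16 rose and 0 fell, among them Gemin6 (0.85) of the SMN complex, the methylase Prmt5 (0.75) and Clns1a (0.47). Primitive endoderm markers rose in 5 of 7 cases and fibroblast markers fell in 5 of 10 by 24 h.

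In SFH medium the fitted curve at 24 h also lay higher in many of the same families. Of 53 genes 19 were higher at 24 h by the fitted curve and 0 lower (35.8%, against 13.5% higher, 12.7% lower and 26.2% in either direction of 16343 genes), with a median of 0.24 against -0.04. Prpf31 went from 113 CPM at 0 h to 182 CPM at 28 h and 198 CPM at 48 h, and was at 88.3 CPM at 92 h (0.97 ± 0.15 at 24 h, edgeR adjusted p = 1.7e-05). Snrpd3 rose by 0.80 (adjusted p = 2.5e-06), Snrpe by 0.65, Snrpg by 0.42, Snrpd1 by 0.40 and Snrpd2 by 0.35. Lsm7 (0.62), Lsm6 (0.60), Lsm1 (0.54) and Lsm2 (0.49) rose, and so did U2af2 (0.51), Prpf4 (0.49), Snrpb2 (0.43), Snrpa (0.36), Prpf8 (0.34) and Snrpc (0.32). Of the SR genes Srsf3 (0.52 ± 0.19, adjusted p = 0.042) and Srsf1 (0.43) passed, and Srsf2 (0.11), Srsf5 (-0.15), Srsf6 (0.23) and Srsf7 (0.22) did not. Snrpb (-0.01), Sf3a1 (-0.00) and U2af1 (0.29) did not pass. The difference between the media was tested at 92 h and not at 24 h. Of 16 assembly genes 7 rose and 0 fell, with Gemin6 at 1.01, Prmt5 at 0.82 and Clns1a at 0.77. Primitive endoderm markers rose in 7 of 7 cases and fibroblast markers fell in 4 of 10 by 24 h.

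By 92 h in S/L medium the splicing genes had moved in both directions. Of 54 genes 6 were higher and 5 lower than at 0 h (20.4%, against 21.3% and 19.3% higher and lower, 40.5% in either direction, of 16846 genes). The share called thus lay below the background. Lower were Sf3a2 (-0.90), Sf3a3 (-0.56) and Sf3a1 (-0.41, adjusted p = 0.0495), the 3 subunits of SF3A, Prpf19 (-0.63), a ubiquitin ligase that acts in spliceosome activation, and Snrpb (-0.58). Sf3a2 stood at 104 to 126 CPM from 0 to 28 h and at 40.4 to 74.4 CPM from 68 to 92 h, and Prpf19 at 340 to 379 CPM and 183 to 255 CPM in the same windows, neither with overlap. Higher were Lsm5 (0.74), Lsm14b (0.61), Prpf39 (0.57), Snrpe (0.51), Snrpd1 (0.49) and Lsm4 (0.32). Snrpd2 (0.16), Snrpa (0.08), U2af1 (0.22), U2af2 (-0.42), Lsm2 (-0.11), Prpf8 (0.12) and Prpf31 (-0.30) did not pass.

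The SR genes varied widely between neighbouring hours late in the S/L course. Srsf3 stood at 622, 280, 712, 347, 187 and 530 CPM at 68, 72, 76, 80, 88 and 92 h, and the summed SR genes at 4141, 2402, 4477, 2525, 2052 and 3770 CPM. The libraries of 72, 80 and 88 h were low and the other 3 high, a spread not seen from 0 to 28 h, when the sum ran from 3244 to 3537 CPM. These libraries stood apart in the ribosomal protein share too, at 6.74%, 6.81% and 7.53% at 72, 80 and 88 h against 5.89%, 6.03% and 5.91% at 68, 76 and 92 h. Their primitive endoderm sums, of 2149, 2363 and 2903 CPM against 2847, 3242 and 3670.0 CPM, overlapped, since 88 h lay above 68 h. None of the 11 SR genes passed at 92 h, with Srsf3 at 0.13 ± 0.38, Srsf2 at -0.55, Srsf5 at -0.20, Srsf6 at -0.26, Srsf7 at -0.26 and Srsf1 at 0.24. Without the libraries of 72, 80 and 88 h, a choice made after the values were seen, 15 of the 54 splicing genes were higher and 4 lower at 92 h, and Sf3a2 (-0.53) and Sf3a1 (-0.33) no longer passed. A spline with 2 degrees of freedom in place of 3 gave 18 higher and 10 lower. Fibroblast sums went over the course from 62.7 to 106 CPM at 0 to 28 h to 15.5 to 32.7 CPM at 68 to 92 h.

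By 92 h in SFH medium 17 of 53 genes were higher and 2 lower (35.8%, against 21.5% and 19.7% higher and lower, 41.2% in either direction, of 16343 genes), with a median of 0.18 against 0.00. Snrpe stood at 58.4 to 68.4 CPM from 0 to 12 h, at 79.0 to 113 CPM from 16 to 60 h and at 87.5 to 113 CPM from 64 to 96 h, with no overlap between the first window and the others (0.98 ± 0.13 at 92 h, edgeR adjusted p = 6.7e-07). Prpf39 (0.84), Snrpd1 (0.74), Snrpd3 (0.64) and Snrpd2 (0.28) rose, as did 7 of 13 LSm genes, led by Lsm11 (0.72), Lsm5 (0.67) and Lsm3 (0.58), and 4 of 11 SR genes, Srsf3 (0.52), Srsf1 (0.46), Srsf9 (0.41) and Srsf10 (0.40). Lower were Prpf40b (-0.64), a U1-linked protein, and Prpf18 (-0.45), which acts in the second catalytic step. Snrpb (0.20), Snrpa (0.18), Sf3a1 (-0.29), U2af1 (0.03), U2af2 (-0.02), Lsm2 (0.22), Prpf8 (-0.04), Prpf31 (0.37), Srsf2 (-0.22), Srsf5 (-0.22), Srsf6 (-0.19) and Srsf7 (-0.10) did not pass. The library of 88 h had the lowest SR sum, 2640 CPM, against 3552 to 4983 CPM in the others from 64 to 96 h. Fibroblast sums were 170 to 536 CPM from 0 to 12 h and 22.5 to 46.8 CPM from 64 to 96 h, and their part in these changes was not tested.

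The S/L and SFH courses differed in Snrpb. In S/L medium it stood at 173 to 198 CPM from 0 to 28 h, at 108 to 127 CPM from 36 to 60 h and at 104 to 135 CPM from 68 to 92 h. In SFH medium it stayed between 166 and 282 CPM, so that every SFH library lay above every S/L library from 36 h on. The change by 92 h was higher by 0.82 ± 0.24 in SFH than in S/L medium (interaction term, edgeR adjusted p = 0.019), the one of 54 genes that passed, against 5.3% higher and 6.6% lower of 17745 genes. It held in all 4 alternatives tried. The other genes with a fall in S/L medium did not pass this test, with Prpf19 at 0.58 (adjusted p = 0.052) and Sf3a2 at 0.63 (adjusted p = 0.21), nor did Prpf31 (0.71, adjusted p = 0.076) or Snrpe (0.48, adjusted p = 0.084). Deposited depth also differed, at 35.636 to 56.992 M in S/L and 12.601 to 28.281 M in SFH. Each medium was followed in a single course that stands in its own deposited table, so medium, course, table and depth cannot be told apart. The p-value covers the scatter of libraries along these courses and not that between repeated courses.

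**Figure D5:**
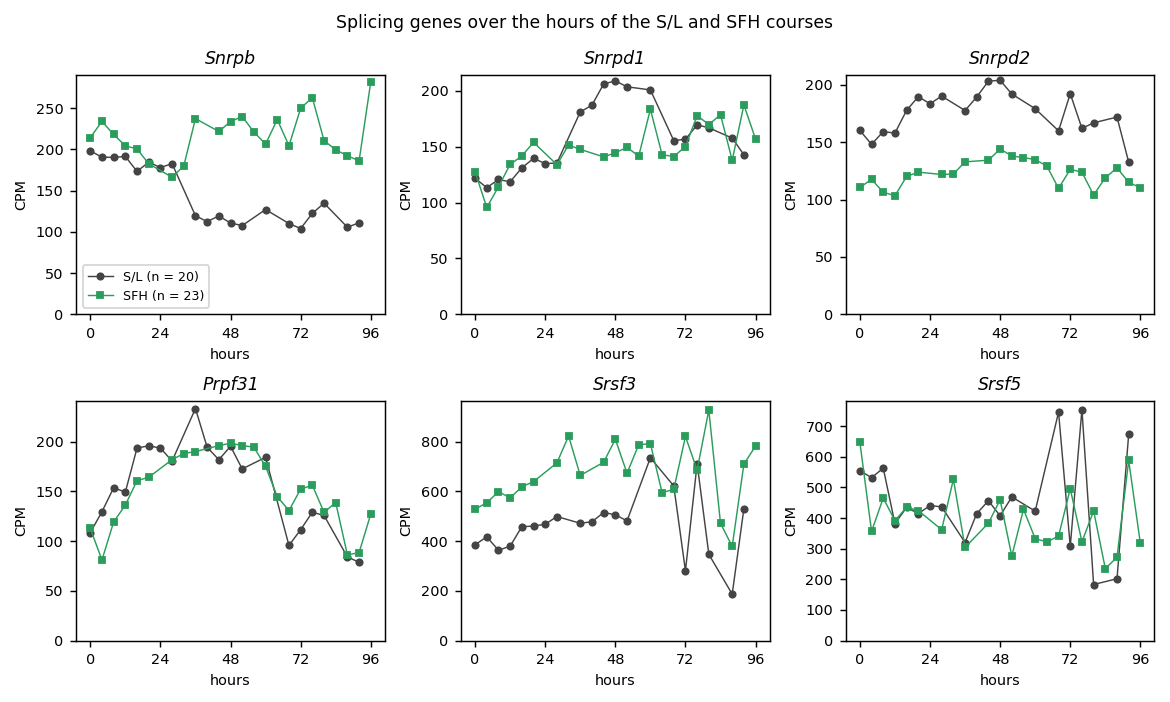
CPM of Snrpb, Snrpd1, Snrpd2, Prpf31, Srsf3 and Srsf5 by hour after transfer to S/L (n = 20) or SFH (n = 23) medium, one point per library. Snrpb drops between 28 and 36 h in S/L medium, to 108 to 127 CPM, Prpf31 peaks in both media and returns, and Srsf3 scatters from 187 to 712 CPM in the late S/L libraries.

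SF3B genes, partners of SF3A in the U2 snRNP, also changed in the courses. Sf3b3, which was higher with P, was lower at 92 h in S/L (-1.45, edgeR adjusted p = 5.0e-07) and SFH medium (-0.98, adjusted p = 5.8e-06), as was Sf3b4 (-1.61 and -0.86). Sf3b6 was higher (0.42 and 0.69). Of 7 SF3B genes 3 rose and 3 fell in S/L and 2 rose and 2 fell in SFH medium, where 40.5% and 41.2% of all genes were called. Srrm4 fell in both (-1.94 and -5.18), and Hnrnph2, an hnRNP protein, rose in both (1.26 and 0.78).

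In NTF medium 4 Prpf genes of the tri-snRNP and catalytic steps rose. Prpf8 stood at 445, 336, 473, 559, 887, 921 and 816 CPM at 0, 4, 10, 24, 48, 72 and 96 h, with every library from 48 h on above every earlier one (1.47 ± 0.28 at 96 h, edgeR adjusted p = 0.0026). Prpf4b rose by 1.30 and Prpf31 by 1.10 ± 0.23 (adjusted p = 0.0038), and Snrpd3 (0.71), Prpf6 (0.70) and Srsf10 (0.67) were higher too, while Prpf40b was lower (-0.90). This made 7 of 54 genes higher and 1 lower, or 14.8%, against 16.7% and 15.3% (32% in either direction) of 16381 genes. The share called thus lay below the background. The length slope of the libraries also rose, from -0.44 at 4 h to 0.19 at 96 h, and long genes went with higher changes among the 54 (Pearson r = 0.395 of log2 change on log10 exon length, across genes that are not independent). Without the 4 h library, the one with overrepresented short genes, Prpf8 (1.21), Prpf31 (1.03) and Prpf4b (0.96) still passed, and Snrpd3, Prpf6, Srsf10 and Prpf40b did not. With gene length trends removed 9 genes were higher and 0 lower. Fibroblast markers fell in 9 of 10 cases, from a sum of 315 CPM at 0 h to 26.9 CPM at 96 h, and naive markers in 7 of 8, while primitive endoderm markers rose in 5 of 7; their part in the result was not tested. Snrpb (0.57), Snrpd2 (0.21), Snrpe (0.55), Snrpa (0.29), Sf3a1 (0.07), U2af1 (-0.08), U2af2 (0.30), Lsm2 (0.01), Srsf1 (0.68), Srsf2 (0.06), Srsf3 (0.67), Srsf5 (-0.22), Srsf6 (0.08) and Srsf7 (0.06) did not pass.

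In the libraries titled ZHBTc4 and grouped as with doxycycline, 2MYCP at passages 1 to 4 was set against 2MYC at passages 2 and 3. The 2MYC titles do not name doxycycline, so a difference in it cannot be told apart from the medium. Of 54 genes 1 was higher and 4 lower, against 1.22% and 2.59% (3.81% in either direction) of 15165 genes. Srsf4, an SR protein, stood at 12.9, 12.2, 9.0 and 10.1 CPM in 2MYCP and at 0.0 and 0.1 CPM in 2MYC. Both 2MYC libraries and 2 of the 2MYCP libraries overrepresent short genes. In 2MYCP at passage 12, 2 further short-gene libraries had Srsf4 at 0.5 and 1.1 CPM, and 1 of these has no doxycycline in its title. Lower were Lsm2 (-3.21), Snrpd1 (-2.25), Snrpb2 (-2.21) and Lsm3 (-2.07). Lsm2 stood at 95.1, 27.1, 29.7 and 25.9 CPM against 370 and 172 CPM. Leaving out 1 library gave 0 to 17 calls. With passages 2 and 3 alone and passage as a block, 0 genes were higher and 7 lower, so Srsf4 did not pass there. Srsf3, at 236, 117, 105 and 112 CPM against 205 and 311.5 CPM (-1.39 ± 0.45, adjusted p = 0.096), did not pass, nor did Srsf7 (-0.64), Srsf2 (1.30), Srsf5 (0.88), Srsf6 (-0.42), Srsf1 (0.42), Snrpb (0.06), Snrpd2 (-2.25, adjusted p = 0.053), Snrpe (-1.48), Snrpa (-1.04), Sf3a1 (-0.42), U2af1 (-1.45), U2af2 (0.69), Prpf8 (1.03) or Prpf31 (-1.11). With so few libraries a gene that did not pass may still differ. The part of the length bias in these values was not tested.

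In the remaining groups the levels were read without a test. In embryoid bodies the markers of 2 libraries went against their day labels. Naive pluripotency genes summed to 6996, 953, 371 and 259 CPM on days 3, 8, 10 and 12 from TC1 cells, but to 148, 3461, 257 and 267 CPM from 2MYCP cells, where the libraries labelled day 3 and day 8 stand in the reverse order. Fibroblast genes summed to 4031 and 31.4 CPM in these 2 libraries, and the TC1 library labelled day 3 is the one close to mPSC. With the labels as given, Srsf3 stood at 164, 835.5, 848 and 568.3 CPM from TC1 cells and at 150.0, 858, 547 and 412 CPM from 2MYCP cells, and the summed SR genes at 2375, 4707, 4268 and 3450 CPM and at 1721, 4847, 3652 and 3224 CPM. No order over days is read from them. In 2MYP medium, at passages 7 and 8, the SR sums were 3591 and 3813 CPM and the Sm sums 1369.7 and 1069 CPM, in 2 short-gene libraries. TELC at passages 0, 1 and 2 had SR sums of 2795, 1207 and 1723 CPM and Sm sums of 759, 2362 and 1914 CPM, and passages 1 and 2 overrepresent short genes. PreLC at passages 0, 1 and 2 had SR sums of 3042, 3161 and 1830.0 CPM and Sm sums of 1003, 1150.3 and 650.2 CPM, lowest at passage 2 in both. The blastocyst library had an SR sum of 2969 CPM and an Sm sum of 947 CPM, and the 2 blastoid libraries had SR sums of 2997 and 3895 CPM and Sm sums of 767 and 816 CPM. On gelatin, at passages 7 and 8, the SR sums were 2903 and 3085 CPM, against 2953 to 3225 CPM in established 2MYCP cells. The Sm sums were 1617 and 912 CPM, against 635 to 696 CPM. Single genes could differ from these sums. Prpf39 stood at 23.8 and 7.6 CPM and Srsf10 at 126 and 94.2 CPM on gelatin, below the 31.9 to 47.2 and 205 to 223 CPM of established 2MYCP cells. The passage 7 library overrepresents short genes. Fibroblast sums were 27.1 and 16.3 CPM on gelatin against 1198 to 1916 CPM in established 2MYCP cells. By mean SR sum over groups of at least 2 libraries, 2MYC was highest (4479 ± 547 CPM, n = 6), then the NTF course (4339 ± 298, n = 7), the SFH course (4257 ± 513, n = 23) and the ICR lines (4003 ± 100.3, n = 4), all within their spread of a neighbour. The lowest were the ZHBTc4 libraries in 2MYC (978 ± 369, n = 2) and in 2MYCP with doxycycline (1391 ± 237.5, n = 5), 5 of 7 of which overrepresent short genes. Those 5 had SR sums of 717 to 1809 CPM. The others, in 2MYCP at passages 2 and 4, were low too, at 1327 and 1325 CPM.

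Across libraries, Sm genes moved with Sm genes and SR genes with SR genes more than across these families, but not every role held together. Over the 87 libraries without overrepresented short genes, the median Pearson correlation of log2 (CPM + 1) was 0.625 between pairs of Sm genes, 0.497 between pairs of SR genes and 0.26 between an Sm and an SR gene, among genes of sufficient level. Pairs of LSm genes were at 0.214, below LSm with Sm genes (0.276), and pairs of U1 and U2 genes at 0.245, below U1 and U2 with Prpf genes (0.435). Over all 104 libraries these values were 0.611, 0.733 and -0.158, so that the sign between the families turned with the short-gene libraries. The genes most like Srsf3 over the 87 libraries, among 11410, were Tra2b (r = 0.929), Srsf7 (0.857), Hnrnpdl (0.852), Prps1l3 (0.845) and Rbmxl1 (0.836). Those most like Snrpd2 were Snrpg (0.919), Atp5j (0.857), Mrpl42 (0.846), Eif3i (0.845) and Eif3k (0.845), where over all 104 libraries Rps9 (0.903), Rpl27 (0.901) and Rpl8 (0.894), short genes of ribosomal proteins, followed Snrpg. The points share tables, depth and gene length bias, and the correlations are given as descriptions.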

How the data were processed

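The authors deposited raw counts per gene symbol in 18 tables for 104 libraries. Reads were trimmed with Trimmomatic, aligned with HISAT2 and counted with featureCounts, with the builds mm10 and hg38 named and no versions, per the submitters' processing notes. Annotation, strand and read pairing are not given in the sources used here. Low counts were even in 69.34% to 92.75% of cases, as when both mates are counted, so halved counts were an alternative. In each file 26 rows whose symbols had turned into dates were left out, and no other column was unused. CPM here are counts divided by the library total.

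All genes were fitted together with edgeR 4.0.16 (R 4.3.3), after filterByExpr and TMM scaling, and tested by its quasi-likelihood F test, with Benjamini-Hochberg adjustment over all of them and calls at an adjusted p under 0.05. Standard errors were obtained by dividing the log2 fold change by the root of its F value. Passage was a block in 2MYCP against 2MYC. The mPSC, 2MYCP, 2MYC and ICR groups were 1 fit. The hours of a course entered as a natural spline (3 degrees of freedom, or 2 in NTF), and passage trends used log2 of passage. The script was tested on simulated data. Exon lengths came from GENCODE vM21 for 98.2% of genes.

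The genes and lists were chosen with earlier results of these data known. Named in each comparison were 16 set genes, the largest changes that passed, up to 6 per direction among genes averaging 5 CPM or more, and up to 3 per direction of a related list; single-library values and other members were also named after their values were seen. The values of 1 member are not reported here or drawn, though counts of genes include it. Alternatives were DESeq2 1.42.0 size factors and Wald test, no filter, removed gene length trends, halved counts, other splines and blocks, and left-out libraries. Counts limit precision in the shallowest library, of 1.041 M (M, mega).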

Additional observations from a re-analysis of the deposited data

Results flagged for a closer look

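Of 64 sets of 4 to 10 libraries examined for a library that stood far from the rest, 2 had one, and chance gives about 1 in 20. Lsm2, a subunit of the LSm ring on U6 RNA and of the decay ring in the cytoplasm, stood at 104 CPM in the ICR line titled 4nM at passage 4, against 72.0 to 76.9 CPM in the other 3 libraries of that group. That library overrepresents short genes (slope -0.84). Srsf5 stood at 494 CPM in 2MYCP at passage 6, below 605 to 628 CPM at passages 1, 2 and 4. Later passages were not in that set, and all of them also lay below this range, so passage 6 stood far only from the earlier passages. The change of Snrpb by 92 h differed between the SFH and S/L courses by 0.82 on the log2 scale.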

How the results depend on the processing

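The number of splicing genes called in 2MYCP against 2MYC was 6 and ran from 0 to 12 when 1 passage was left out. Libraries of the same passage did not deviate together (correlations of 0.11, 0.19, -0.01 and 0.04 over 11282 genes), so passage numbers do not pair the samples; with no replicate block 7 genes were called.

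Against mPSC, established 2MYCP gave 17 calls, 7 to 26 with 1 library left out and 7 without the passage 0 library. For 2MYC there were 16, 11 to 28 with 1 left out and 11 without passage 0. The ICR lines gave 18 to 26 with 1 left out, and Snrpd2 ran from -1.60 to 0.21, the latter without passage 0, against -1.19 with all libraries.

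The 2MYCP passage trend gave 8 calls, 3 without a filter, 15 with the DESeq2 Wald test, 5 with gene length trends removed, 0 with passage as a plain number, 14 with the passage 0 library added, where Srsf6 turned to 0.021, and 0 to 8 with 1 library left out. The 2MYC trend gave 0, 1 with the DESeq2 Wald test and 0 to 2 with 1 left out. S/L at 92 h gave 11, 28 with 2 spline degrees of freedom and 19 without 72, 80 and 88 h. The interaction gave 1, and 2 with the DESeq2 Wald test. NTF gave 8, 5 with DESeq2 size factors, 5 without a filter, 5 with hours as a straight line, 4 without the short-gene library and 4 without 4 h and 24 h. ZHBTc4 gave 5, 14 with the DESeq2 Wald test, 0 with passage 12 in place of passages 1 to 4, 0 with the short-gene 2MYCP libraries alone and 0 to 17 with 1 left out. The causes were not tested.

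The 24 h changes in both courses, SFH at 92 h and the ICR lines kept their counts within 1.5 times under the alternatives run. Other splines were not run for the 24 h changes, and no course had its libraries left out in turn, so these alternatives were fewer. With 6.263 to 7.979 M counts, 2MYC limits what was detectable for low genes such as Snrpf and Srsf12.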
